A study of Homo sapiens with 6 samples.

Results

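The genes described here are the subunits and NDUFAF assembly factors of mitochondrial complex I, measured after knockdown of PARP1 in HK-2, an immortalised cell line from human renal proximal tubule. The rule took every protein-coding row of the count table with a symbol that starts with NDUF. It found 47 of 30403 rows, with 46 distinct symbols, of which 40 rows name subunits and 7 name assembly factors. The group was chosen by its measured difference between the knockdown and control libraries, so counts of changed members and the sizes of their changes are given below as a description, without a test, and support nothing. Of the 47 rows, 46 passed the filter on low counts. The row left out was a second NDUFA7 row, with at most 1 count in a library.

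Cells of the shPARP1 group had been transfected with a plasmid for a short hairpin RNA against PARP1, and cells of the shCtrl group with a plasmid for a control hairpin. Both groups received the same transfection reagent, Lipofectamine 2000, and were harvested after 48 h, with 3 libraries per group and no other agent named. Polyadenylated RNA was sequenced, and the series title names extracellular matrix genes as the subject of the study. The labels do not say whether the 3 libraries of a group came from separate cultures, so p-values here cover library-to-library spread, which may be technical only.

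Complex I takes electrons from NADH, passes them along iron-sulfur clusters to ubiquinone, and pumps protons across the inner mitochondrial membrane. Its N module holds the NADH site, its Q module the quinone site, and its membrane arm the proton channels. Nuclear genes encode the whole peripheral arm and the accessory subunits, while the channel subunits are encoded in mitochondrial DNA, and assembly factors join the modules without staying in the finished enzyme. Proximal tubule cells rely on oxidative phosphorylation for solute transport.

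Library totals were 29387853 to 32809303 counts in shPARP1 and 24429683 to 26269194 counts in shCtrl, at which 3 counts correspond to 0.0914 to 0.123 counts scaled to library size, here CPM. PARP1 itself had 26.9, 26.1 and 28.8 CPM in shPARP1 libraries, against 262, 263 and 258 CPM in shCtrl libraries (log2 fold change -3.26, edgeR quasi-likelihood adjusted p = 1.7e-51). The cells carried defining markers of tubule epithelium, with PAX8 at 338 to 350 CPM in shPARP1 and 413 to 422 CPM in shCtrl, but LRP2, the megalin gene, had at most 0.0335 CPM in a library and CUBN and SLC34A1 reached at most 0.50 CPM. Of the 10 proximal tubule markers, 6 were tested and 5 of these fell, with a summed level of 922 to 943 CPM in shPARP1 and 1341 to 1358 CPM in shCtrl. Of the 5 general epithelial markers, 3 rose and 1 fell (summed level 1101 to 1127 CPM in shPARP1 and 931 to 951 CPM in shCtrl). CDH1 fell, with a mean of 1.83 CPM in shPARP1 and 3.34 CPM in shCtrl. Leukocyte markers summed to 2.62 to 3.25 CPM in shPARP1 and 7.53 to 8.97 CPM in shCtrl, nearly all from CD14, with CD3E at 0 in 5 of 6 libraries. Of the fibroblast markers, 2 were tested and fell, and the list summed to 9.22 to 10.6 CPM in shPARP1 and 18.8 to 22.1 CPM in shCtrl. Endothelial markers summed to 0.23 to 0.34 CPM in shPARP1 and 0.31 to 0.42 CPM in shCtrl. The part of these shifts in the results below was not tested. All libraries came from a single cell line. In bulk RNA, fewer cells that express a marker cannot be told apart from less of its RNA per cell.

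Promoters of 5 members are shown because they hold letters known as binding motifs of regulators of nuclear respiratory genes and because they include members called higher, not called and called lower. Each window runs from 250 bases before to 50 bases after the RefSeq start of the gene on GRCh38.p14, 5′ to 3′ along the gene, with motif letters in capitals.
NDUFA8, chr9:122159730-122160029, minus strand: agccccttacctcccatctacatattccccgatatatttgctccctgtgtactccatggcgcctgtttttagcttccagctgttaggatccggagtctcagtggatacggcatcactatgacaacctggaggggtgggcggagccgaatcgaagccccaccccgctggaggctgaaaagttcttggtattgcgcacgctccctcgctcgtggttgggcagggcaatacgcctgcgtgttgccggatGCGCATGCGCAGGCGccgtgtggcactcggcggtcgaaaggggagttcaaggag
NDUFS6, chr5:1801157-1801456, plus strand: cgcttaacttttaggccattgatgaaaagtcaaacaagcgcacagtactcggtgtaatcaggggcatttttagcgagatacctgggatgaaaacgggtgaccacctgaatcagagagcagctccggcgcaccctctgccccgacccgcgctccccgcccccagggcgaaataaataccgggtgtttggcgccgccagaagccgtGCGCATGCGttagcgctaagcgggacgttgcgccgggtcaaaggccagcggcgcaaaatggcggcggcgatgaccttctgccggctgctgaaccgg
NDUFAF5, chr20:13784778-13785077, plus strand: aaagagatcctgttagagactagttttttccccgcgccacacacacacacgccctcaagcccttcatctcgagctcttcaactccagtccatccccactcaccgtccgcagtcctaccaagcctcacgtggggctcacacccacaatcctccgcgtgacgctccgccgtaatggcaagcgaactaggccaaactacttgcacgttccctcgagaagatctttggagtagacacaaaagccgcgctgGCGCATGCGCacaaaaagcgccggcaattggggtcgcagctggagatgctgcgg
NDUFS7, chr19:1383657-1383956, plus strand: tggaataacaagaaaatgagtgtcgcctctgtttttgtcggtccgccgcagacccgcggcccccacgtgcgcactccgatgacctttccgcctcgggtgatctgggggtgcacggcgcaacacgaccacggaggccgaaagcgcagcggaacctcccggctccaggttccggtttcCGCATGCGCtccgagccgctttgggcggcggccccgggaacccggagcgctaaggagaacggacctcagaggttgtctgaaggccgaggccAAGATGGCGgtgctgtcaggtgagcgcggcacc
NDUFS1, chr2:206159395-206159694, minus strand: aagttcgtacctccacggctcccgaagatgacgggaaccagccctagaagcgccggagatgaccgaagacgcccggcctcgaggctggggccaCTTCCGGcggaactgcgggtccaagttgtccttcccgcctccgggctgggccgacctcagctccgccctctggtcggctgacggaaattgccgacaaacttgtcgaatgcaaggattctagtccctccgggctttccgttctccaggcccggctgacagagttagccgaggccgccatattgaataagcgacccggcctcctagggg

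The capitals in NDUFA8, NDUFS6 and NDUFAF5 mark letters of the NRF1 core GCGCATGCG, those in NDUFS7 this core and the YY1 core AAGATGGCG, and those in NDUFS1 the ETS core CCGGAAG, which GABP binds. In NDUFA8 the capitals also take in an overlapping match to the core with 1 free base, GCGCANGCG. Matches were sought on both strands, and the NRF1 core nearly repeats itself on the other strand, so that matches on the 2 strands can overlap by all but 1 base. Promoter entries were matched for 38 member symbols. The NRF1 core stood in 4 of 32 subunit promoters (12.5%) and 1 of 6 assembly factor promoters, against 1.92% of 35116 promoters in the whole RefSeq table. The YY1 core stood in 5 of 32 subunit promoters (15.6%) and in 1.75% of all promoters. The ETS core was in 5 of 32 subunit promoters and in 10.3% of all, and the estrogen-related receptor motif TCAAGGTCA was in none of the 38 member windows, against 0.353% of all. The whole table was not cut down to tested genes, so its shares are not a like background for the members. A match is a run of letters and not a shown binding site. NDUFA8, NDUFAF5, NDUFB4, NDUFS6 and NDUFS7 carried the NRF1 core, and their log2 fold changes ran from 0.08 to 1.11 with a median of 0.69, against a median of 0.47 over the 33 windows without it. With 1 free base in the core the order turned, with a median of 0.44 over 10 windows with it and 0.49 over 28 without it. For the YY1 core the medians were 0.41 with it and 0.48 without it, and for the ETS core 0.47 and 0.48.

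Most of the nuclear subunit transcripts were higher in shPARP1. Of 39 tested subunit rows, 33 rose, 3 fell and 3 did not pass the test, with a median log2 fold change of 0.46, against -0.01 over all 16040 tested genes. Of all tested genes, 27.3% were called higher and 28.5% lower at an adjusted p under 0.05 in edgeR, and nothing is read from the members' counts beside these shares, since the same contrast chose the members. All 3 shPARP1 libraries lay above all 3 shCtrl libraries for 34 of the 39 rows and for 29.7% of tested genes. The changes were small: 11 subunits rose at least 1.5-fold and 1 rose at least 2-fold. Without NDUFA4 and NDUFA4L2, which carry the prefix but are not complex I subunits in current annotation, 32 of 37 rose and 2 fell. The median of the subunits over their own shCtrl means was 0.48, 0.44 and 0.45 log2 units in the 3 shPARP1 libraries and between -0.01 and 0.01 in the 3 shCtrl libraries.

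**Figure D1:**
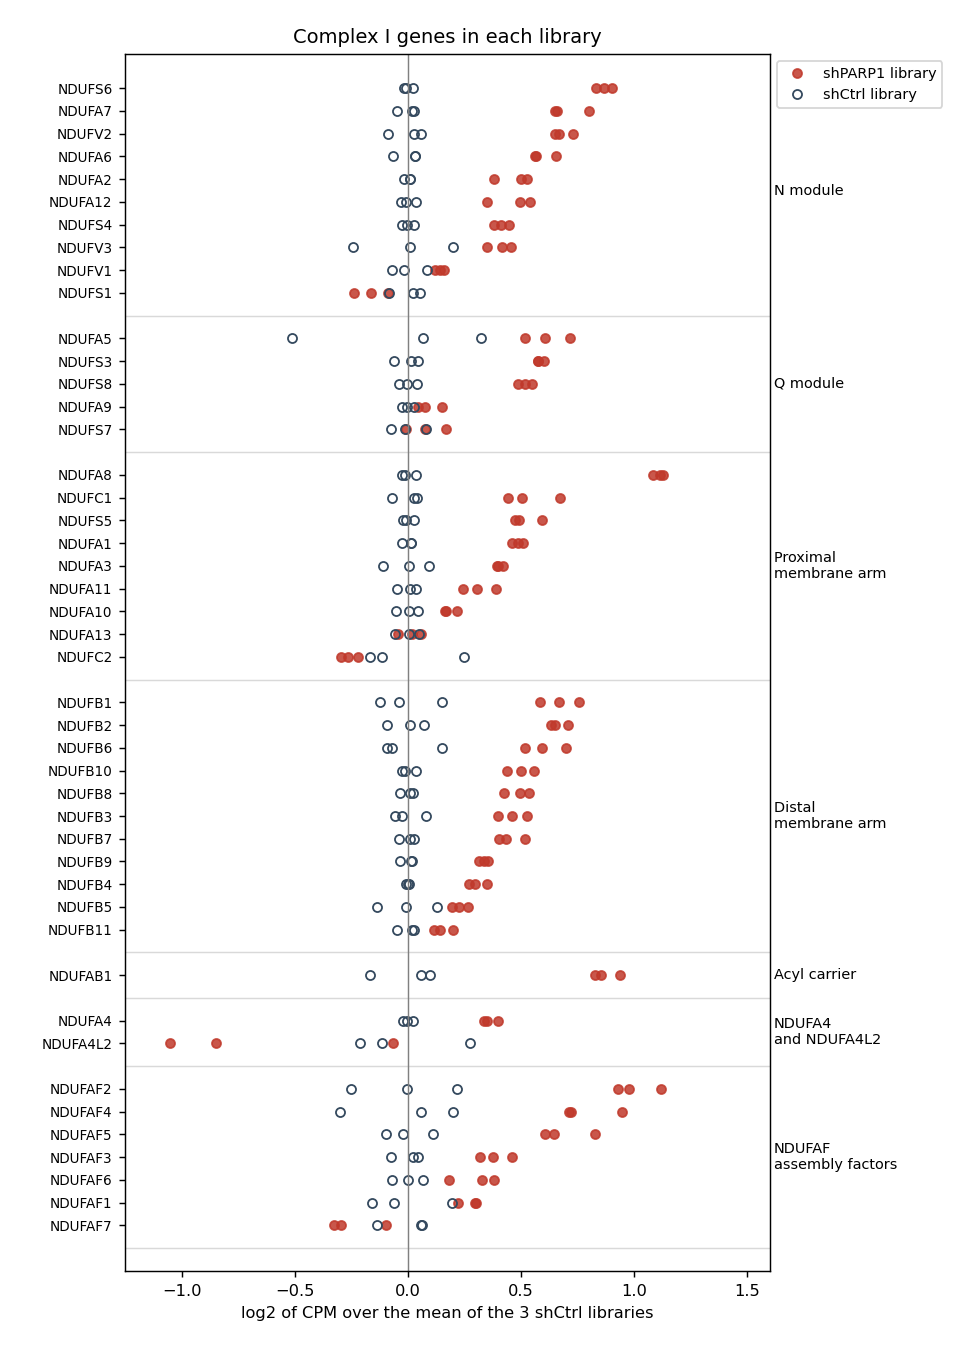
Each row is one tested gene (1 subunit is not drawn), each point one library (filled, shPARP1; open, shCtrl), and the axis gives the log2 ratio of its CPM to the mean of the 3 shCtrl libraries. Filled points lie right of the open ones for 33 of the subunits drawn and 6 assembly factors, NDUFA8 lies farthest right, and NDUFS1 and NDUFC2 lie left.

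In the N module, which oxidises NADH, 9 of 10 tested members rose and 1 fell, with a median log2 fold change of 0.47. NDUFS6, an accessory subunit with a zinc site, had 191, 196 and 201 CPM in shPARP1 libraries, against 109, 106 and 107 CPM in shCtrl libraries (log2 fold change 0.87 ± 0.04, SE). The groups were far apart for this gene. NDUFV2, which carries an iron-sulfur cluster beside the flavin, had 73.2, 72.2 and 76.4 CPM in shPARP1 and 46.9, 47.9 and 43.3 CPM in shCtrl (0.68 ± 0.05). NDUFV1, the subunit that binds NADH and the flavin, had 148, 144 and 146 CPM in shPARP1 and 131, 141 and 126.5 CPM in shCtrl (0.14 ± 0.04). Its groups were separate but close, and the second shCtrl library came within 4 CPM of the lowest shPARP1 library. Its call was lost with the length offset (0.0033) and with the length and GC offset (0.041). NDUFS1, the large iron-sulfur subunit, fell, with 33.3, 31.6 and 35.0 CPM in shPARP1 and 38.7, 35.1 and 37.9 CPM in shCtrl (-0.16 ± 0.06), but stood at 0.026 with a length offset. Its groups nearly touched. Its call was lost without shPARP1 replicate 1 (-0.16), without shPARP1 replicate 2 (-0.12), without shCtrl replicate 1 (-0.13) and without shCtrl replicate 3 (-0.15). NDUFA7 had 57.6, 52.1 and 51.9 CPM in shPARP1 and 33.5, 33.6 and 31.9 CPM in shCtrl (0.71 ± 0.06). These counts are uncertain because its 2 rows share 456 exonic bases and the second row held at most 1 count in a library. GENCODE release 29 names the tested row AC010323.1 and gives the symbol NDUFA7 to the second row. The tested row also shares 12.8% of its annotated exons with CD320 on the same strand (203 CPM in shCtrl). It shares 12.4% with RPS28 on the other strand (461 CPM in shCtrl).

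In the Q module, 4 of 6 tested members rose and 2 did not pass the test. NDUFS3, a core subunit of this module, had 83.2, 83.2 and 84.5 CPM in shPARP1 and 57.5, 56.3 and 53.4 CPM in shCtrl (0.59 ± 0.05). NDUFS8, which carries iron-sulfur clusters, had 164, 160 and 157 CPM in shPARP1 and 111, 109 and 115 CPM in shCtrl (0.52 ± 0.04). Both genes had separate groups. NDUFS7, which lines the quinone site, did not pass the test, with 93.5, 87.6 and 82.7 CPM in shPARP1 and 82.5, 88.0 and 79.0 CPM in shCtrl (0.08 ± 0.05). Its groups overlapped. Antisense genes cover 35.7% and 13.4% of its annotated exons, and these genes averaged 1.56 and 0.12 CPM in shCtrl. NDUFA9, a quinone-arm accessory subunit, had log2 fold change 0.09 ± 0.05 and did not pass the test. Of the 7 nuclear core subunits, those shared with the bacterial enzyme, 5 rose, NDUFS1 fell and NDUFS7 did not pass the test.

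In the membrane arm, each of the 11 tested members of the distal part rose, with log2 fold changes from 0.15 to 0.67, though NDUFB11 stood at -0.018 with a length offset. NDUFB2 had 162, 155 and 153 CPM in shPARP1 and 92.8, 99.6 and 104 CPM in shCtrl (0.66 ± 0.04), and NDUFB1 had a log2 fold change of 0.67 ± 0.06. Both are small accessory subunits with separate groups. NDUFB11, an X-linked member, had 255, 241 and 245 CPM in shPARP1 and 225, 227 and 215 CPM in shCtrl (0.15 ± 0.04), the smallest rise of the distal part. NDUFB5 had a log2 fold change of 0.23 ± 0.07.

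In the proximal part of the membrane arm, 7 of 9 tested members rose, 1 fell and 1 did not pass the test. NDUFA8, an accessory subunit of the intermembrane space, had the largest fold change of all members, with 72.5, 74.7 and 73.9 CPM in shPARP1 and 35.0, 33.9 and 33.6 CPM in shCtrl (1.11 ± 0.05, 2.16-fold). The libraries within each group differed by less than 3 CPM. NDUFA10, which resembles nucleoside kinases, rose by little (0.18 ± 0.05). NDUFA13, also known as GRIM-19, did not pass the test, with 210.3, 205 and 196 CPM in shPARP1 and 209, 194 and 203 CPM in shCtrl (0.01 ± 0.04). Its groups overlapped fully, and with a length offset it stood at -0.11 and was called lower. NDUFC2 fell, with 11.9, 11.6 and 12.2 CPM in shPARP1 and 12.7, 13.2 and 16.9 CPM in shCtrl (-0.26 ± 0.10). The third shCtrl library stood above the others, and the call was lost without it (-0.12) and without shPARP1 replicate 2 (-0.24).

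NDUFAB1, the mitochondrial acyl carrier protein that sits in complex I and also serves fatty acid and iron-sulfur cluster synthesis, had 33.9, 31.4 and 32.0 CPM in shPARP1 and 15.7, 18.4 and 18.9 CPM in shCtrl (0.87 ± 0.07). NDUFA4, now assigned to complex IV, had 187, 179 and 181 CPM in shPARP1 and 141, 144 and 139.7 CPM in shCtrl (0.36 ± 0.04). Both genes had separate groups. NDUFA4L2, a hypoxia-inducible paralog of NDUFA4, had 2.31, 1.17 and 1.34 CPM in shPARP1 and 2.09, 2.23 and 2.92 CPM in shCtrl (-0.58 ± 0.23). Its groups overlapped and its counts were low. Its call was lost without shPARP1 replicate 2 (-0.39), without shPARP1 replicate 3 (-0.47) and without shCtrl replicate 3 (-0.42).

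Among the 7 NDUFAF assembly factors, 5 rose, none fell in edgeR and 2 did not pass the test, with a median log2 fold change of 0.39. At an unadjusted p under 0.05, 0 fell in edgeR, 0 in DESeq2 and 0 in limma-voom. NDUFAF2, a chaperone that joins late with the N module, had 27.9, 27.0 and 30.8 CPM in shPARP1 and 16.5, 11.9 and 14.1 CPM in shCtrl (1.01 ± 0.09, 2.02-fold). NDUFAF4, which acts early together with NDUFAF3, had 8.16, 9.62 and 8.22 CPM in shPARP1 and 5.72, 4.04 and 5.18 CPM in shCtrl (0.80 ± 0.13). Both had separate groups. NDUFAF5, which hydroxylates NDUFS7, had 11.2, 11.5 and 13.1 CPM in shPARP1 and 6.89, 7.97 and 7.26 CPM in shCtrl (0.69 ± 0.10). NDUFAF3 had 80.5, 73.2 and 76.1 CPM in shPARP1 and 60.5, 55.6 and 59.6 CPM in shCtrl (0.39 ± 0.05). Per length, NDUFAF2 (33.5 FPKM in shPARP1 and 16.1 FPKM in shCtrl) and NDUFAF3 (32.3 FPKM in shPARP1 and 23.9 FPKM in shCtrl) were the most abundant of the 7. NDUFAF1, a part of the membrane-arm assembly complex, had 8.43, 7.997 and 8.45 CPM in shPARP1 and 7.85, 6.58 and 6.14 CPM in shCtrl (0.28 ± 0.12). Its groups were separate, but the call was lost without any 1 of the 3 shPARP1 libraries (0.27, 0.30 and 0.26) and without shCtrl replicate 2 (0.26) or 3 (0.20). NDUFAF6 had 6.31, 6.09 and 5.50 CPM in shPARP1 and 4.84, 5.08 and 4.61 CPM in shCtrl (0.30 ± 0.13). It did not pass the main test over all 6 libraries, but passed without shPARP1 replicate 3 (0.36) or without shCtrl replicate 2 (0.35). It also passed with DESeq2 size factors (0.31), library totals (0.33), a filter at 1 CPM (0.31) and the length offset (0.33). With limma-trend on log2 FPKM it passed at pseudocounts of 1 (0.22) and 0.1 (0.32). NDUFAF7, a methyltransferase, had 5.76, 6.77 and 5.90 CPM in shPARP1 and 6.59, 7.54 and 7.57 CPM in shCtrl (-0.24 ± 0.12) and did not pass the test.

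The eighth factor of this family stands outside the symbol rule because the table lists it under its older symbol C17orf89. It had 65.5, 57.9 and 60.6 CPM in shPARP1 and 34.5, 33.5 and 31.4 CPM in shCtrl (log2 fold change 0.89 ± 0.06, edgeR adjusted p = 2.2e-20). The groups were separate, with every shPARP1 library over 1.5-fold above every shCtrl library. Over all tested genes, 27.3% were called higher and 28.5% lower in edgeR. Of 12 assembly factors with other names, 8 rose, 1 fell and 3 did not pass the test, with a median log2 fold change of 0.27. The smallest adjusted p-values were those of TMEM261, now DMAC1, a distal-arm assembly factor (0.58 ± 0.06, edgeR adjusted p = 5.0e-12), ECSIT, a member of the membrane-arm assembly complex (0.49 ± 0.06, edgeR adjusted p = 1.6e-10), ATP5SL, now DMAC2 (0.32 ± 0.05, edgeR adjusted p = 3.8e-08), and FOXRED1 (0.33 ± 0.07, edgeR adjusted p = 0.000129). TIMMDC1, which was the only one of the 12 to fall, was named after its value was seen (-0.20 ± 0.06, edgeR adjusted p = 0.00297), and the call was lost without shCtrl replicate 2 (-0.10).

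Of the 7 complex I subunits encoded in mitochondrial DNA, none rose, 4 fell and 3 did not pass the test in edgeR. At an unadjusted p under 0.05, 0 were higher in edgeR, DESeq2 or limma-voom. Over all tested genes, 27.3% were called higher and 28.5% lower in edgeR. MT-ND4 had 9506, 9999 and 10421 CPM in shPARP1 and 14891, 13333 and 14372 CPM in shCtrl (-0.51 ± 0.04, edgeR adjusted p = 5.7e-10). MT-ND1 had 7590.1, 8059.7 and 8099.9 CPM in shPARP1 and 9552, 9182 and 9888 CPM in shCtrl (-0.27 ± 0.03, edgeR adjusted p = 2.6e-12). Both had separate groups. MT-ND4L, which shares a transcript with MT-ND4, fell by 0.69 ± 0.09 on the log2 scale (edgeR adjusted p = 0.00312). MT-ND5 had a log2 fold change of -0.39 ± 0.10 (edgeR adjusted p = 0.0262), and its call was lost without any 1 of the 3 shPARP1 libraries (-0.35, -0.40 and -0.41) or without shCtrl replicate 3 (-0.38). It was also lost with the replicate number as a block (-0.39, edgeR adjusted p = 0.113, with a range of 2.3e-16 to 0.113 over the alternatives). MT-ND2 (0.01 ± 0.03) and MT-ND3 (-0.11 ± 0.05) did not pass the test. MT-ND3 passed with the replicate block (-0.11) and without shCtrl replicate 2 (-0.16). It also passed with DESeq2 size factors (-0.10), the DESeq2 Wald test (-0.10) and no filter on low counts (-0.11). With the length offset (-0.29) and the length and GC offset (-0.45) it passed as well. MT-ND6, the subunit gene on the other mitochondrial strand, had 209.6, 202 and 236 CPM in shPARP1 and 602, 323 and 335 CPM in shCtrl (-0.96 ± 0.31, edgeR adjusted p = 0.0582). The first shCtrl library stood apart, and without it the fall was 0.61 on the log2 scale and passed the test (edgeR adjusted p = 5.4e-12, with a range up to 0.163 over the alternatives). The strand setting of the counting was not stated, so reads from the 2 mitochondrial strands may not have been separated. How fully poly(A) selection captured MT-ND6 and the other mitochondrial transcripts was not tested.

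Summed over the 38 nuclear subunit rows without NDUFA4 and NDUFA4L2, the level was 3632, 3528 and 3598 CPM in shPARP1 and 2726, 2709.8 and 2714 CPM in shCtrl. Summed over the 7 mitochondrial genes, it was 28008, 29565 and 30329 CPM in shPARP1 and 38194, 34484 and 37709 CPM in shCtrl. The sums moved in opposite directions, and neither sum overlapped between the groups. The ratio of the mitochondrial to the nuclear sum was 7.71, 8.38 and 8.43 in shPARP1 and 14.01, 12.7 and 13.9 in shCtrl. Mitochondrially encoded genes as a whole took 9.94% to 10.8% of counts in shPARP1 and 12.03% to 13.1% in shCtrl. Their share bears on every CPM value, and with these genes left out of the table and the totals 33 subunits were again called higher and 3 lower.

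**Figure D2:**
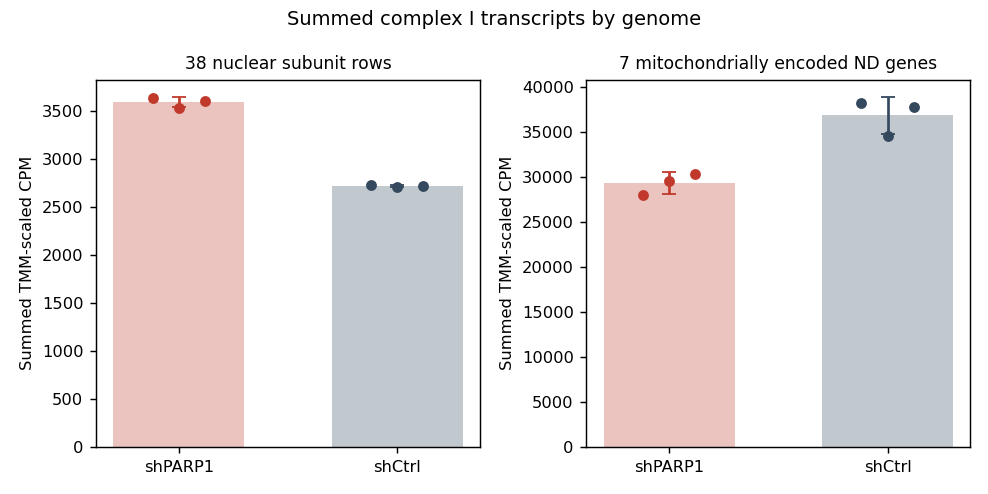
Summed TMM-scaled CPM of the 38 nuclear subunit rows and of the 7 mitochondrial ND genes, with shPARP1 left of shCtrl; bars are means, error bars SD over 3 libraries, points single libraries. The nuclear sum is 3528 to 3632 CPM in shPARP1 and 2709.8 to 2726 CPM in shCtrl, and the mitochondrial sum is lower in every shPARP1 library.

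Levels between genes were compared as FPKM, the deposited level per gene length and library size. The median over tested subunits was 45.4 FPKM in shPARP1 and 29.1 FPKM in shCtrl, and over the 7 NDUFAF factors 3.24 FPKM in shPARP1 and 2.89 FPKM in shCtrl. NDUFS5, a proximal-arm subunit, was highest in both groups (441 ± 21.0 FPKM in shPARP1 and 298 ± 6.70 FPKM in shCtrl, SD, n = 3 each). NDUFB7 followed with 209 ± 7.90 FPKM in shPARP1 and 148 ± 1.54 FPKM in shCtrl. NDUFS8 ranked 3 in shPARP1 (181 ± 3.57 FPKM in shPARP1 and 123 ± 2.87 FPKM in shCtrl), while NDUFB11 ranked 3 in shCtrl (156 ± 4.13 FPKM in shPARP1 and 136 ± 4.83 FPKM in shCtrl). NDUFB11 and NDUFB4 (150.3 ± 3.78 FPKM in shPARP1 and 118 ± 1.99 FPKM in shCtrl) were neighbours in the shPARP1 order and differed there by less than the sum of their SDs. At the low end stood NDUFA4L2 with 1.09 ± 0.41 FPKM in shPARP1 and 1.59 ± 0.29 FPKM in shCtrl, and NDUFA5 with 1.34 ± 0.10 FPKM in shPARP1 and 0.85 ± 0.24 FPKM in shCtrl, which did not differ beyond their spread in shPARP1. Low FPKM values of genes with long annotated exons, such as NDUFS1 and NDUFA5, depend on that length. The order of the members was nearly the same in both groups, with a Spearman correlation of 0.99 over 46 genes from the same libraries, given as a description.

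**Figure D3:**
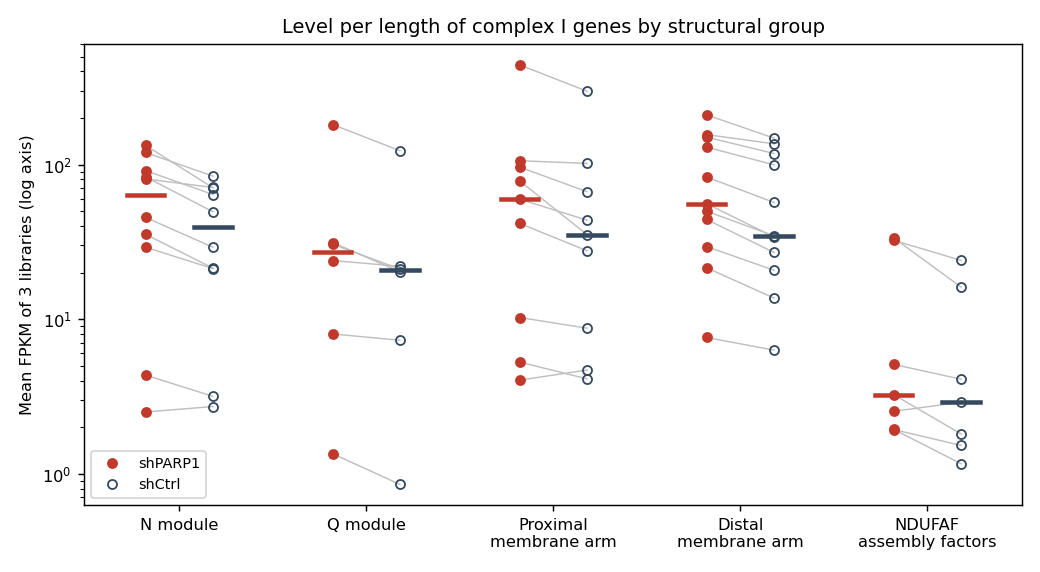
Mean deposited FPKM of each tested member on a log axis by structural group, with shPARP1 left of shCtrl, grey lines joining a gene and thick bars marking group medians; NDUFAB1, NDUFA4 and NDUFA4L2 are not drawn. Assembly factors have the lowest group median, with 3.24 FPKM in shPARP1 and 2.89 FPKM in shCtrl. The lowest gene drawn is NDUFA5 of the Q module (1.34 FPKM in shPARP1 and 0.85 FPKM in shCtrl).

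Shorter genes had higher log2 fold changes over the whole table, and subunit genes are short, with a median length of 1618 bases among tested subunits against 3684 bases among all tested genes. With tested genes cut by length into 4 equal bins, the median log2 fold change was 0.21 in the shortest bin, then 0.04 and -0.08, and -0.13 in the longest. The 26 subunits in the shortest bin had a median of 0.49, the next 5 had 0.49, the next 3 had 0.23 and the 5 in the longest bin had 0.18. Across genes, log2 length and log2 fold change had a Pearson correlation of -0.20 and a Spearman correlation of -0.24 over 15959 genes. Over the 39 subunits the same correlations were -0.40 and -0.41, all measured in the same libraries. With an offset for length and GC content, added after seeing the data, the subunit median was 0.28 and 32 subunits were called higher and 2 lower. With it NDUFV1 (0.041), NDUFB11 (0.027), NDUFS4 (0.075), NDUFS1 (-0.0074) and NDUFAF1 (0.12) no longer passed the test, while NDUFA9 (0.25) and NDUFS7 (0.21) were called higher. The median of the 7 assembly factors was then 0.43, with 4 called higher and 1 lower, and NDUFAF7 was the lower one (-0.40). Each of the 7 mitochondrial genes was called lower with this offset, with a median of -0.54, and MT-ND2 stood at -0.30. The all-gene median moved to 0.03.

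**Figure D4:**
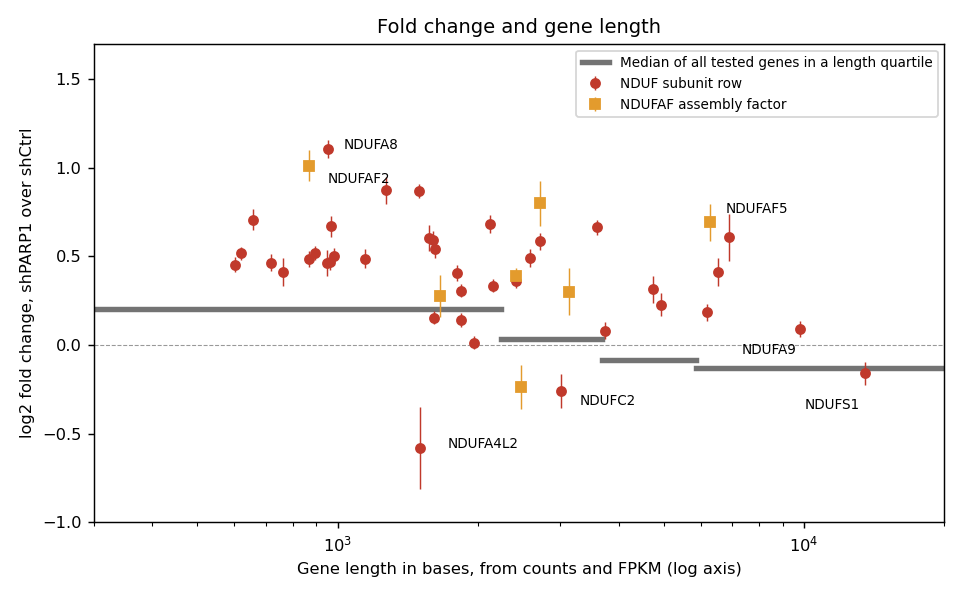
Log2 fold change (shPARP1 over shCtrl) of each tested member against gene length on a log axis; error bars are SE of the fit and grey bars medians of all tested genes in each of 4 length bins (0.21, 0.04, -0.08 and -0.13). Most subunits lie above the grey bar of their own length, and NDUFA4L2 and NDUFC2 are among those below it.

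**Figure D5:**
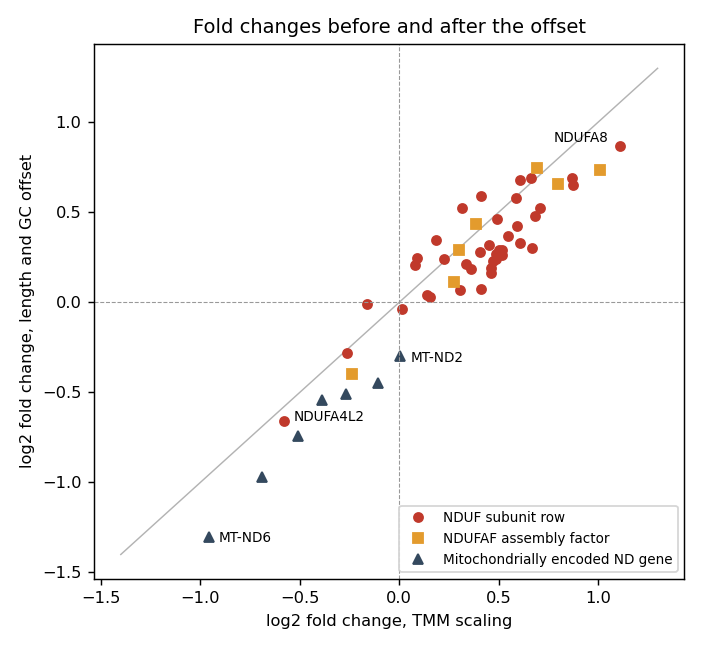
Log2 fold change of each tested member and mitochondrial ND gene with TMM scaling (x) and with the length and GC offset (y); the line marks equal values. Most subunits lie below the line but above 0, and each of the 7 mitochondrial genes lies below both the line and 0.

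Of 9 regulators of nuclear respiratory genes, 2 rose, none fell and 7 did not pass the test in edgeR. The share that rose was 22.2%, against 27.3% of all tested genes called higher and 28.5% called lower. At an unadjusted p under 0.05, 0 were lower in edgeR, DESeq2 or limma-voom. ESRRA, which encodes an estrogen-related receptor, had 46.6, 43.9 and 44.2 CPM in shPARP1 and 35.7, 28.8 and 29.5 CPM in shCtrl (0.52 ± 0.07, edgeR adjusted p = 8.4e-10). GABPB1, the beta subunit of GABP, had 8.92, 8.22 and 8.92 CPM in shPARP1 and 5.47, 6.04 and 5.65 CPM in shCtrl (0.60 ± 0.12, edgeR adjusted p = 1.4e-05). Both had separate groups. NRF1 had 21.2, 20.9 and 19.6 CPM in shPARP1 and 18.7, 19.9 and 18.9 CPM in shCtrl (0.10 ± 0.08, edgeR adjusted p = 0.271), with overlapping groups. With the length and GC offset, 4874 of 15834 genes were called higher. Of the regulators 5 were then called higher, NRF1 (0.21), PPRC1 (0.24) and YY1 (0.11) among them. YY1 thus turned direction, since with TMM scaling it stood at -0.09 ± 0.05 and did not pass the test. TFAM (-0.09 ± 0.10) and GABPA (0.04 ± 0.22) did not pass the test either.

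Many NDUF genes have a neighbour on the other strand that starts nearby. For 22 of 46 tested members (47.8%) a protein-coding gene on the other strand started within 1000 bases, against 17.2% of 13239 tested protein-coding genes. The count takes in starts upstream of the member's start and starts downstream of it, where the genes can overlap. Whether a promoter is shared was not tested. Of their 23 partners, 9 rose, 6 fell, 6 did not pass the test and 2 were not tested, with a median log2 fold change of 0.10. Of all tested protein-coding genes, 29.6% were called higher and 32.2% lower, and nothing is read from the partners' counts. The partners named next were chosen after their values were seen. MRPL36, a mitochondrial ribosomal protein gene opposite NDUFS6, averaged 43.2 CPM in shPARP1 and 23.3 CPM in shCtrl (0.89 ± 0.07), close to the fold change of NDUFS6 itself. ERCC8, a repair gene opposite NDUFAF2, averaged 5.03 CPM in shPARP1 and 2.99 CPM in shCtrl (0.74 ± 0.16). HIF1AN, which encodes an oxygen-dependent hydroxylase of HIF and lies opposite NDUFB8, averaged 68.5 CPM in shPARP1 and 124 CPM in shCtrl (-0.85 ± 0.04), while NDUFB8 had a log2 fold change of 0.49. CEBPZ, opposite NDUFAF7, averaged 9.86 CPM in shPARP1 and 5.75 CPM in shCtrl (0.78 ± 0.12). Exons of 16 of the 46 members overlap exons of a protein-coding gene on the other strand. The counts of these members are uncertain because the strand setting is not given. RBM10 (111 CPM in shCtrl) overlaps 44.9% of the annotated exons of NDUFB11, and HIF1AN overlaps 16.3% of those of NDUFB8. Of the 30 members without such an overlap, 26 were called higher, against 27.3% of all tested genes, and nothing is read from this count. These 30 can still overlap noncoding genes or genes on the same strand. NDUFA11, for example, shares 9.65% of its annotated exons with AC024592.3 (97.9 CPM in shCtrl) on the same strand. Another 9 rows with an NDUF symbol were not protein-coding, 6 of them processed pseudogenes, and none held more than 42 counts in a library.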

How the data were processed

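RNA of 6 libraries from HK-2 cells was analysed from a table of counts per gene and a table of FPKM values. Per the labels, polyadenylated RNA was selected and the kit kept strand and the reads were paired. The authors deposited whole-number read counts that were not normalized, and FPKM values, which scale counts by gene length and library size. Per the submitters' processing notes, bcl2fastq, TopHat2 and edgeR were used with GRCh38. Which counter, strand setting and annotation release were used is not given in the sources used here.

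Counts were tested in R 4.3.3 with edgeR 4.0.16 (filterByExpr, 16040 genes, TMM scaling, robust quasi-likelihood F test), with Benjamini-Hochberg adjustment over all tested genes and calls at an adjusted p under 0.05. Values are TMM-scaled CPM, and log2 fold changes are shPARP1 over shCtrl. The members, gene lists, motifs and rules were chosen with earlier results of these data known. The named genes were PARP1, each NDUFAF member, the 7 nuclear core subunits, NDUFA4 and NDUFA4L2, the 6 highest and 6 lowest other members with a mean of at least 1 CPM, each mitochondrial ND gene, and up to 4 called genes of the other lists by smallest p. Genes named for their FPKM order, as promoter carriers, as neighbours, as an untested or older-named row, or for a changed call stand outside this rule and were chosen after their values were seen. Gene length came from the ratio of counts to FPKM. Alternatives used DESeq2 1.42.0, limma 3.58.1 (voom, and limma-trend on log2 FPKM with pseudocounts of 1 and 0.1), other scalings and filters, offsets for length, a replicate block, and each library left out in turn. The offset for length and GC content of the longest GENCODE release 29 transcript was chosen after seeing the data. Promoters came from RefSeq on GRCh38.p14; NDUFA4, NDUFA4L2, NDUFAF6, NDUFB5, NDUFB9, NDUFC2 and NDUFS5 were among those not matched. The values of 1 core subunit are not reported here, though it stays in the counts, sums and medians. Counts were simulated from these libraries, with 50 of 16040 genes changed by each of 4 folds. The test recovered 42% at a fold of 1.25, 76% at 1.5, 78% at 2 and 94% at 4, and made 9 false calls. In the data far more genes were called (27.3% higher and 28.5% lower), which changes the adjusted p cutoff, so these rates do not carry over to the data. Chi-square per degree of freedom within groups was 2.54 to 4.55, so each library was counted as 1 replicate. Floors in CPM cover counting error only. Tables were summarised with Python 3.11.15.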

Additional observations from a re-analysis of the deposited data

How the results depend on the processing

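Of the 38 members called higher, 34 kept direction and call under every alternative run, and 0 of the 3 lower and 0 of the 5 uncalled members did. The subunit median was 0.49 with library totals in place of TMM, 0.49 with limma-trend on log2(FPKM + 1), 0.51 with a pseudocount of 0.1, 0.27 with a length offset and 0.28 with a length and GC offset. Subunits called lower numbered 1 with DESeq2 and 0 with either FPKM test (1 each at an unadjusted p under 0.05), and other assembly factors called lower 0 with either (0 unadjusted). With either offset 1 NDUFAF factor and 7 mitochondrial ND genes were called lower, and regulators called higher numbered 4 with length and 5 with length and GC. With the length offset NDUFS1 stood at 0.026, NDUFA13 at -0.11 (called lower), NDUFB11 at -0.018 and MT-ND2 at -0.22, and with length and GC MT-ND2 stood at -0.30 and YY1 at 0.11 (called higher); the cause was not tested. With 1 free base in the NRF1 core, 10 member promoters held it, against 5.

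Leaving out each library in turn gave 33 to 34 subunits called higher and 0 to 3 lower (0 without shPARP1 replicate 2 and without shCtrl replicate 3), 4 to 5 NDUFAF factors higher, 3 to 5 mitochondrial ND genes lower, and 7 to 9 other assembly factors higher and 0 to 1 lower. The subunit median ran from 0.45 to 0.48. With the replicate block, 33 subunits were called higher and 3 lower, and calls changed for MT-ND3 and MT-ND5 and for no other of the members, ND genes, other assembly factors, regulators and PARP1, for which it was run gene by gene. Deviations of same-numbered libraries had correlations of 0.04, -0.00 and 0.04, so the numbers were not taken as pairs. With mitochondrial genes left out there is no value for the ND genes. Counts were low for NDUFA4L2, NDUFAF1, NDUFAF6 and NDUFAF7, but also for NDUFAF4 and NDUFA5, which were called higher. The part of low counts in these calls was not tested.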
